A study of Mus musculus with 8 samples.

Results

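The genes described here are 10 C-type lectin receptors of myeloid cells, a set of membrane proteins with a C-type lectin-like domain: Clec4d, Clec4e, Clec4n, Clec5a, Clec12a, Clec4a1, Clec4a2, Clec4a3, Clec10a and Clec2d. They were taken by name, as the mRNA probes with RefSeq NM accessions whose gene name or mapped symbol was one of the 10, out of 20476 mRNA genes and 47074 mRNA probes on the array. The 10 genes had 24 probes, and 20 probes of 9 genes passed the filter on dim signals. Clec12a had 2 probes and neither passed.

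Total RNA of spinal cord from 8 female mice aged 8 weeks was hybridised to 1-colour (Cy3) Agilent arrays for circRNAs, lncRNAs and mRNAs, 1 array per sample. The groups were contusion injury, a blunt bruise of the cord (4 mice), and control (4 mice), and the tissue was the thoracic segment around the lesion. The contusion titles give 3 days after injury, while the descriptions of contusion replicates 1, 2, 3 and 4 give 3, 4, 5 and 6 days. The controls are called sham in one place and normal cord in another, no strain or genotype is given, and no cell type was isolated. Contusion replicate 1 shared a slide with control replicates 2, 3 and 4 (slide 1), and contusion replicates 2, 3 and 4 shared the other with control replicate 1 (slide 2), so slide and described day cannot be told apart among the contusion samples.

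C-type lectin receptors let macrophages, monocytes, neutrophils and dendritic cells recognise glycans of microbes and molecules released by damaged cells. Clec4e (Mincle), Clec4d (MCL) and Clec4n (Dectin-2) have short tails and signal through the adapter Fc receptor gamma chain (Fcer1g), which recruits the kinase Syk and, through it, the complex of Card9, Bcl10 and Malt1 that turns on NF-kappa-B target genes. Clec5a (MDL-1) uses the adapters DAP12 (Tyrobp) and DAP10 (Hcst) instead, while Clec12a and Clec4a2 (DCIR) carry an inhibitory motif that recruits phosphatases such as SHP-1 (Ptpn6). Most of these genes lie in clusters on mouse chromosome 6, in the neighbourhood of the natural killer receptor genes.

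What the probes of these genes read is shown by 4 sequences from the array files, which were chosen because 3 of them cross an intron and the other holds a stop codon, so that they show which stretch of the transcript was measured. Positions are those of the array design on mm9. The span of a probe that crosses an intron is longer than its 60 bases, and the capitals in the Clec4d probe mark a stop codon after 48 bases of open reading frame. No exon annotation of that build was used here.
Clec4d probe, chr6:123224788-123224847 (+): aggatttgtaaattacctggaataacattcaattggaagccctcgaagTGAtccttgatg
Clec4n probe, chr6:123194580-123196486 (+): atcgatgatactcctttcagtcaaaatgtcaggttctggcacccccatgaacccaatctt
Clec5a probe, chr6:40532266-40535180 (-): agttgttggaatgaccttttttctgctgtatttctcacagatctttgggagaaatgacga
Clec4a2 probe, chr6:123078029-123089285 (+): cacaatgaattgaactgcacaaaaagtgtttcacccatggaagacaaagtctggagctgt
Of the 14 receptor probes with a position in the files 4 cross an intron, the last being a dim Clec4a1 probe. The 60 bases of a probe can also pair with close relatives, and cross-hybridisation among the Clec4 genes was not tested.

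The stretches of 250 bases before the gene starts of Clec4d, Clec4e and Clec5a, the receptors of the largest increases with an entry in the RefSeq promoter table (GRCm38.p6), are shown because these genes were higher together. Capitals mark matches on either strand to GAGGAA, the core bound by the myeloid factor PU.1, and to TTNNGNAA, a pattern of C/EBP factors, with N any base.
Clec4d upstream sequence, chr6:123261857-123262106 (+): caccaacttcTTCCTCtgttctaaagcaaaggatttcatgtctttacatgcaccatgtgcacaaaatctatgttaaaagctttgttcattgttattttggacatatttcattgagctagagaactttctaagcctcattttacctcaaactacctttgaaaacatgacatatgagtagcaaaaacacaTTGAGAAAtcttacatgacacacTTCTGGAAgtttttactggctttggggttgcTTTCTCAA
Clec4e upstream sequence, chr6:123289872-123290121 (-): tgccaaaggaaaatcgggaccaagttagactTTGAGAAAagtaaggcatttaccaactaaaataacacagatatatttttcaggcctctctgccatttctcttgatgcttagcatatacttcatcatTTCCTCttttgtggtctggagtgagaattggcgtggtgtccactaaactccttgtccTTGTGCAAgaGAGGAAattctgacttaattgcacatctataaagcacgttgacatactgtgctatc
Clec5a upstream sequence, chr6:40585806-40586055 (-): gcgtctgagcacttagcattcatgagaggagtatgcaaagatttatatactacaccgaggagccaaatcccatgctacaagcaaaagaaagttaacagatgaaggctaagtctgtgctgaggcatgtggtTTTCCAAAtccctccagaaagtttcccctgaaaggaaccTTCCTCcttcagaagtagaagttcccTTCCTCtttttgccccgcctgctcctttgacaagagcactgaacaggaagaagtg
Promoters of 8 of the 10 genes were found, 9 promoters in all, and the windows of the Clec4a3 promoters overlap. GAGGAA stood in 6 of the 9 and in 23.3% of 32851 mouse promoters, and TTNNGNAA in 6 of the 9 and in 36.8% of all. Clec12a, not well above background on any array, held both patterns, and Clec2d, not called by its brightest probe, held TTNNGNAA. Clec4a1 and Clec4a3 held no TTNNGNAA. A pattern for NF-kappa-B was in 0 of the 9 and in 4.11% of all, and the AP-1 pattern TGANTCA in 1 of the 9 and in 6.75% of all. No match of one pattern overlapped a match of another in these 9 promoters. These are matches of letters in a window, not measured binding.

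A level below is the log2 processed intensity of a probe minus the array's 75th percentile, so that 0 is the intensity that 75% of probes do not exceed. Each difference is the contusion mean less the control mean, in log2 units ± SE (n = 4 arrays per group), and adjusted p-values are limma's with Benjamini-Hochberg adjustment over all 89134 features. Levels of different probes cannot be compared with each other, because probes differ in brightness for the same amount of RNA.

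Contused cord had higher mRNA levels of most of these receptors. Of the 9 genes tested 8 were called higher at an adjusted p under 0.05 and 0 lower, against 25.8% of all 18198 mRNA genes called higher and 25.4% called lower. In the same 8 genes every contusion array was above every control array, which held for 26.6% of all mRNA genes. The median difference of the 9 genes was 1.75, beside a median of -0.0016 over all mRNA genes, and within slides 1 and 2 the 9 genes had medians of 1.98 and 1.49. With slide as a block, 7 of the 9 were called higher, against 25.2% of all mRNA genes. The gene no longer called was Clec4a2. The sample is whole tissue, so more cells of a type and more RNA per cell cannot be told apart.

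**Figure D1:**
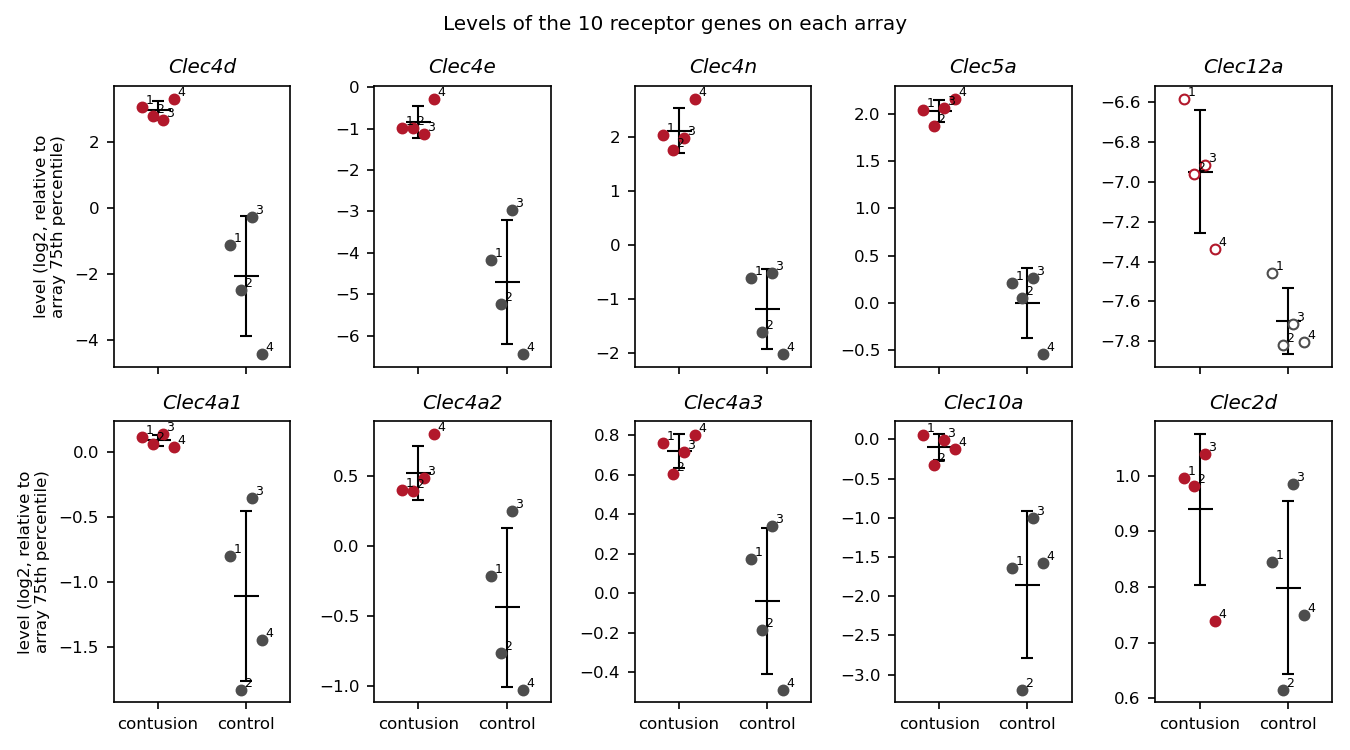
Levels of the 10 receptor genes on each array (log2, relative to the array's 75th percentile), contusion left and control right, with replicate numbers, the group mean and SD (n = 4 each). Open circles for Clec12a were not well above background. Clec4d lies at 2.69 to 3.32 in contusion and -4.43 to -0.26 in control, while the groups of Clec2d overlap.

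Clec4d, the partner chain of Mincle in a heterodimer, had the largest difference of the 9 genes. Its levels were 3.07, 2.79, 2.69 and 3.32 in contusion replicates 1 to 4, against -1.11, -2.48, -0.26 and -4.43 in control replicates 1 to 4. The contusion arrays lay within 0.63 of each other, and the control arrays were spread over 4.17, with replicate 4 lowest and replicate 3 highest. Clec4d was 5.04 ± 0.79 higher (32.9-fold, adjusted p = 0.00152), the 12th largest increase among 18198 mRNA genes. The difference was 5.46 within slide 1 and 4.04 within slide 2. Its second probe, with 0.49, 0.23, 0.31 and 0.86 in contusion and -3.81, -5.55, -3.29 and -5.54 in control, was also called higher (adjusted p = 0.000206 over all probes). That probe was well above background on 3 of 4 control arrays, so no exact difference is given for it. The fold of the brighter probe depended on single control arrays: it was 19.0-fold without control replicate 4, 49.9-fold without control replicate 3 and 14.1-fold with another background correction (normexp). The call held in each case, with adjusted p from 5.08e-06 to 0.00115.

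Clec4e (Mincle), the receptor for mycobacterial cord factor that also binds the nuclear protein SAP130 of dying cells, was at -0.99, -0.99, -1.13 and -0.28 in contusion and at -4.17, -5.24, -2.96 and -6.44 in control. The groups did not overlap, and contusion replicate 4 stood above the other 3. The difference was 3.85 ± 0.66 (adjusted p = 0.00232), with 3.89 within slide 1 and 3.37 within slide 2. The control signal was well above background on 3 of 4 arrays, so Clec4e was at least 12.3-fold higher when the remaining array was set to the lowest signal above background. That bound still counts the dim array, control replicate 4. Without control replicate 4 Clec4e was 9.66-fold higher. With normexp, which here adds an offset to every signal, Clec4e was 2.68-fold higher (adjusted p = 1.22e-05). The offset shrinks log2 differences, most at dim signals. A dimmer second probe, at -3.63, -3.92, -4.02 and -3.32 in contusion, was not well above background on any control array. It passed the filter only through the contusion arrays, so its call (adjusted p = 0.000831 over all probes) adds no separate support.

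Clec4n (Dectin-2), a receptor for fungal mannans, was at 2.04, 1.77, 1.99 and 2.72 in contusion and at -0.60, -1.61, -0.52 and -2.02 in control. All contusion arrays were above all control arrays, with contusion replicate 4 highest and control replicate 4 lowest. The difference was 3.31 ± 0.37 (9.94-fold, adjusted p = 0.00034), and 3.42 and 2.76 within slides 1 and 2. The intron-crossing probe printed above gave 2.84 ± 0.30, with -0.24, -0.68, -0.53 and 0.53 in contusion and -2.86, -3.33, -2.57 and -3.50 in control. With normexp Clec4n was 6.53-fold higher.

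The 3 receptors that use the Fc receptor gamma chain were compared with each other by their ratio on each array. Clec4d over Clec4e was 3.82 ± 0.19 in contusion and 2.63 ± 0.44 in control (log2, SD), so Clec4d differed by 1.19 ± 0.24 more than Clec4e (exact permutation p = 0.0286, the smallest that 4 against 4 arrays can give, adjusted p = 0.0571 over 8 pairs). With normexp this difference was 2.40 ± 0.31 (exact permutation p = 0.0286). Since Clec4e was not well above background on 1 control array, the size of every difference against Clec4e rests in part on a dim signal. Clec4n differed by 0.54 less than Clec4e, or -0.54 ± 0.42 (exact permutation p = 0.286), and with normexp the sign turned to 1.29 ± 0.13 (exact permutation p = 0.0286). The order of the Clec4n and Clec4e increases is therefore not settled.

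Clec5a (MDL-1), the DAP12-coupled receptor of monocytes and neutrophils, was at 2.04, 1.87, 2.05 and 2.16 in contusion and at 0.22, 0.05, 0.27 and -0.54 in control. The contusion arrays were tight, and control replicate 4 lay below the other 3. The difference was 2.03 ± 0.17 (4.09-fold, adjusted p = 0.000158), with 2.11 within slide 1 and 1.81 within slide 2. The intron-crossing probe gave 2.14 ± 0.28, and a custom probe of the same gene gave 1.17 ± 0.17. The 4th Clec5a probe was well above background on all contusion arrays and on no control array. It passed the filter only through the contusion arrays, so its call (adjusted p = 0.00545 over all probes) adds no separate support.

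Clec12a (MICL), an inhibitory receptor that senses uric acid crystals, was not well above background on any array of either group. Its custom probe read -6.58, -6.96, -6.92 and -7.34 in contusion and -7.46, -7.82, -7.71 and -7.80 in control, and the other probe -7.38, -7.24, -7.44 and -7.22 in contusion and -7.39, -7.85, -7.63 and -7.73 in control. On each array the lowest signal well above background lay between -5.65 and -5.14. The data therefore give no fold for Clec12a, and the planned comparison of Clec5a with Clec12a was not made.

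The DCIR genes differed by smaller amounts. Clec4a2 (DCIR), whose tail carries an inhibitory motif, was at 0.40, 0.39, 0.49 and 0.80 in contusion and at -0.22, -0.76, 0.25 and -1.03 in control. The lowest contusion array stood just above control replicate 3. Clec4a2 was 0.96 ± 0.26 higher (1.94-fold, adjusted p = 0.02), with 0.91 within slide 1 and 0.78 within slide 2. With the slide in the fit Clec4a2 was not called (adjusted p = 0.0748). The call was also lost when contusion replicate 4 (adjusted p = 0.0555) or control replicate 2 (adjusted p = 0.0558) was left out. The intron-crossing probe gave 1.07 ± 0.29 (adjusted p = 0.0187 over all probes). A probe for the transcript NM_001170333 gave 0.01 ± 0.15 (adjusted p = 0.956), with -3.78, -3.20, -3.84 and -3.61 in contusion and -3.47, -3.60, -3.56 and -3.85 in control, so that the groups overlapped.

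Clec4a1, a relative of DCIR, was at 0.11, 0.06, 0.14 and 0.04 in contusion and at -0.80, -1.83, -0.36 and -1.44 in control. The contusion arrays lay within 0.10 of each other and the control arrays within 1.47. The difference was 1.20 ± 0.29 (2.29-fold, adjusted p = 0.0112), and 1.32 and 0.88 within slides 1 and 2. Clec4a3, another relative, was at 0.76, 0.60, 0.71 and 0.80 in contusion and at 0.17, -0.18, 0.34 and -0.49 in control. It was 0.76 ± 0.17 higher (1.69-fold, adjusted p = 0.00833), with 0.87 and 0.53 within the slides, and its second probe gave 1.27 ± 0.29. No pair of these 3 genes passed the test of unequal change: Clec4a1 minus Clec4a2 was 0.24 ± 0.18 (exact permutation p = 0.286), Clec4a3 minus Clec4a2 was -0.20 ± 0.13 (exact permutation p = 0.171) and Clec4a1 minus Clec4a3 was 0.44 ± 0.21 (exact permutation p = 0.0571). The mean of all passing probes gave Clec4a1 minus Clec4a2 as 0.52 ± 0.20 and Clec4a3 minus Clec4a2 as 0.34 ± 0.08 (exact permutation p = 0.0286 each, adjusted p = 0.0381). That mean takes in the NM_001170333 probe of Clec4a2.

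Clec4e, the activating receptor, differed by 2.90 ± 0.48 more than Clec4a2, the inhibitory one, on the ratio of the 2 genes per array. The ratio was -1.37 ± 0.22 in contusion and -4.26 ± 0.93 in control (log2, SD), and the arrays of the 2 groups did not overlap. The exact permutation p was 0.0286 and the adjusted p 0.0571 over 8 pairs. With normexp the difference was smaller, at 0.72 ± 0.11 (exact permutation p = 0.0286), so its size depends on the background correction and its offset. With 4 arrays per group and 8 pairs, none of the 8 passed an adjusted p of 0.05. The smallest p of the exact permutation test was reached by 4 of them, all of which include Clec4e.

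**Figure D2:**
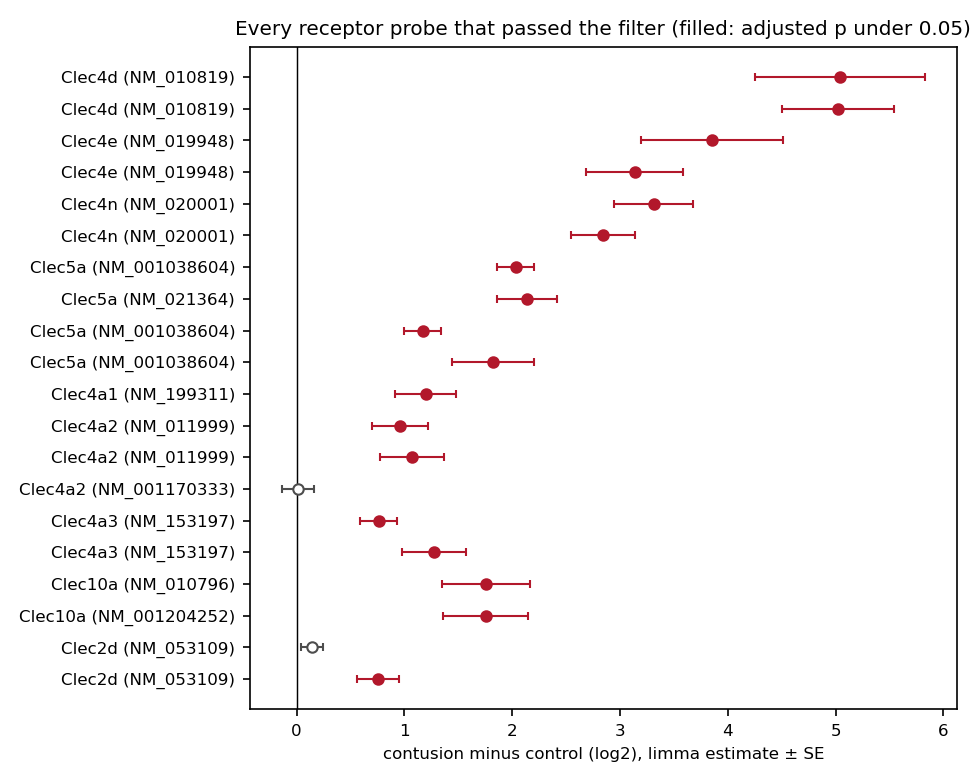
Difference between contusion and control (log2 ± SE, n = 4 each) for the 20 receptor probes that passed the filter, one row per probe with its transcript, filled where the adjusted p was under 0.05. Of the 20 probes 18 are filled, and the 2 open ones are a Clec4a2 probe at 0.01 and a Clec2d probe at 0.14.

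Clec10a (MGL1), a galactose-binding lectin of macrophages and dendritic cells, was at 0.06, -0.32, -0.01 and -0.12 in contusion and at -1.64, -3.19, -1.01 and -1.57 in control. Control replicate 2 was the lowest control, as it was for Clec4a1, and the groups did not overlap. The difference was 1.75 ± 0.41 (3.37-fold, adjusted p = 0.0101), with 1.98 within slide 1 and 1.49 within slide 2, and the second probe gave 1.76 ± 0.39. With normexp Clec10a was 2.15-fold higher. It differed by 2.10 less than Clec4e, as -2.10 ± 0.72 on the ratio per array (exact permutation p = 0.0286, adjusted p = 0.0571). With normexp this was -0.32 ± 0.24 with overlapping groups (exact permutation p = 0.257), so an unequal change of Clec10a and Clec4e is not settled.

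Clec2d (Clr-b), the ligand of an inhibitory natural killer receptor, is expressed more widely than the other genes and was the exception. By its brightest probe it was at 1.00, 0.98, 1.04 and 0.74 in contusion and at 0.84, 0.62, 0.98 and 0.75 in control. The groups overlapped, and the difference of 0.14 ± 0.10 was not called (adjusted p = 0.316, 95% interval -0.09 to 0.37). The other probe of the same transcript read 0.06, 0.11, 0.37 and -0.06 in contusion and -0.54, -1.07, -0.13 and -0.81 in control. It was 0.76 ± 0.19 higher (adjusted p = 0.0138 over all probes), and its groups did not overlap. The mean of both probes was 0.45 higher (adjusted p = 0.0381), so the call for Clec2d depends on the probe. Clec2d by its brightest probe differed by 3.71 less than Clec4e, as -3.71 ± 0.73 (exact permutation p = 0.0286, adjusted p = 0.0571), and with normexp by -1.29 ± 0.21 (exact permutation p = 0.0286).

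At the level of probes, 18 of the 20 that passed were called higher, against 26.5% of 41078 mRNA probes. Among the 18 are the dimmer Clec4e probe and the 4th Clec5a probe, which passed the filter only through the contusion arrays. With slide as a block 15 of the 20 were called. By the brightest probe, levels varied less among contusion arrays than among control arrays in all 9 genes. The SDs were 0.04 to 0.41 in contusion and 0.16 to 1.82 in control. The intron-crossing Clec4n probe went the other way, with SDs of 0.54 in contusion and 0.43 in control. So did the NM_001170333 probe of Clec4a2, with 0.29 and 0.17. By the brightest probe of each gene, control replicate 3 was also the highest control for 9 of the 9 genes. By those probes, control replicate 4 was the lowest for 6 and control replicate 2 for 3. Contusion replicate 4 was the highest contusion array for 6 of the 9. The other Clec5a probes and the NM_001170333 probe of Clec4a2 had control replicate 1 as their highest control. How often all mRNA genes share these orders and spreads was not counted.

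Clec4a1, Clec4a3, Clec4a2, Clec4n, Clec4d and Clec4e follow one another on chromosome 6, and the order of genes there was taken from the RefSeq table. Along this order the differences were 1.20 for Clec4a1, 0.76 for Clec4a3 and 0.96 for Clec4a2, and then 3.31 for Clec4n, 5.04 for Clec4d and 3.85 for Clec4e. Clec4a4 and Clec4b1, lectin genes between Clec4a3 and Clec4a2, differed by 1.12 ± 0.47 (adjusted p = 0.0991) and 1.03 ± 0.28 (adjusted p = 0.0193). The flanking genes did not share one direction. C3ar1, the receptor of complement fragment C3a, was 3.42 ± 0.44 higher (adjusted p = 0.000632). Necap1, an endocytosis gene next to it, fell by 0.79 on the log2 scale (SE 0.13, adjusted p = 0.00195). On the other side the vomeronasal receptor genes Vmn2r19 and Vmn2r20 were higher by 0.67 ± 0.12 (adjusted p = 0.00312) and 0.73 ± 0.07 (adjusted p = 0.000178). These neighbours were named for their position.

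**Figure D3:**
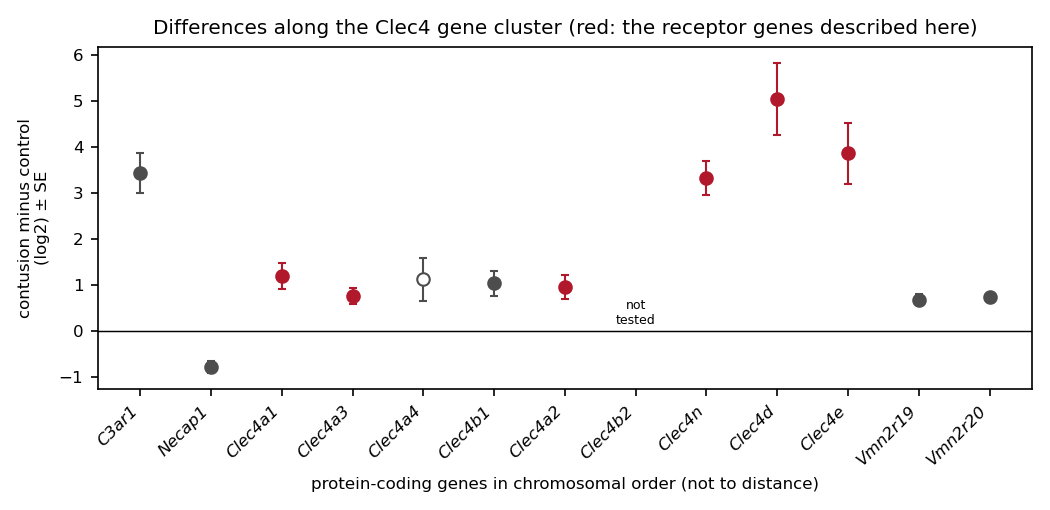
Difference between contusion and control (log2 ± SE, n = 4 each) for protein-coding genes in their order on chromosome 6, not to distance, with receptor genes described here in red and an open symbol where the adjusted p was 0.05 or more. Clec4n, Clec4d and Clec4e lie side by side at 3.31, 5.04 and 3.85, and the DCIR genes lie between 0.76 and 1.20.

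Genes that carry the signal of these receptors were mostly higher as well. Of 14 signalling genes 12 were called higher and 0 lower, against 25.8% and 25.4% of all mRNA genes. The median difference of the 14 was 1.80, with medians of 1.92 and 1.38 within the slides. With slide as a block 12 were called higher, against 25.2% of all mRNA genes. Fcer1g, the adapter of Clec4e, Clec4d and Clec4n, was at 6.31, 5.73, 6.05 and 6.14 in contusion and at 4.17, 3.59, 4.10 and 2.70 in control. Fcer1g was 2.42 ± 0.31 higher (adjusted p = 0.000633). Tyrobp, the adapter of Clec5a, was at 7.06, 6.56, 6.95 and 6.97 in contusion and at 5.22, 5.15, 5.34 and 4.06 in control, or 1.94 ± 0.28 higher (adjusted p = 0.000984). Hcst, its second adapter, was 1.80 ± 0.23 higher (adjusted p = 0.000622).

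Syk, the kinase that Fcer1g and Tyrobp recruit, was at 1.90, 1.68, 1.77 and 2.09 in contusion and at 0.10, -0.46, 0.28 and -0.82 in control. It was 2.09 ± 0.23 higher (adjusted p = 0.000362). Of the complex below Syk, 2 of 3 genes were called higher. Card9, its scaffold, was at -3.23, -3.11, -2.74 and -2.94 in contusion and at -3.74, -3.72, -3.58 and -3.81 in control, which is 0.71 ± 0.11 higher (adjusted p = 0.00171). Bcl10 was 0.50 ± 0.06 higher (adjusted p = 0.000353), and Malt1, the protease of the complex, differed by 0.05 ± 0.10 (adjusted p = 0.728). Ptpn6, the phosphatase SHP-1 that inhibitory receptors recruit, was 2.05 ± 0.25 higher (adjusted p = 0.000502). The other gene not called was Ptpn11, named after its value was seen. Most of these genes also serve Fc receptors and other receptors of leukocytes.

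Of 2 known partners outside the myeloid signalling list, Klrb1b, the natural killer receptor that binds Clec2d, was at -2.14, -2.20, -2.10 and -2.15 in contusion and at -2.43, -2.65, -2.62 and -2.59 in control. It was 0.43 ± 0.07 higher (adjusted p = 0.00172). Sap130, whose protein is a ligand of Mincle, was at 2.91, 2.78, 2.84 and 2.78 in contusion and at 2.77, 2.82, 2.88 and 3.01 in control, with overlapping groups and a difference of -0.04 ± 0.07 (adjusted p = 0.69).

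**Figure D4:**
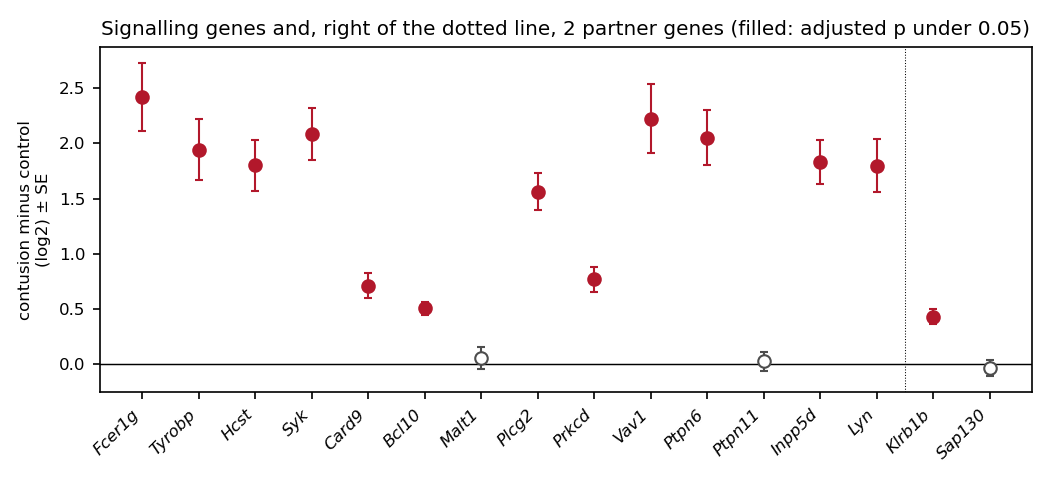
Difference between contusion and control (log2 ± SE, n = 4 each) for 14 signalling genes and, right of the dotted line, the partner genes Klrb1b and Sap130, filled where the adjusted p was under 0.05. Fcer1g, Tyrobp, Hcst, Syk and Ptpn6 lie between 1.80 and 2.42, and Card9, Bcl10 and Malt1 lie at 0.71, 0.50 and 0.05.

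Genes known to be induced through Syk and Card9 in mouse myeloid cells were also measured. Of 14 such cytokine and enzyme genes 12 were tested, and 10 were called higher and 0 lower. Of all mRNA genes 25.8% were called higher and 25.4% lower. The median difference of the 12 genes was 1.94, with medians of 1.84 and 1.72 within the slides. Whether Syk and Card9 had a part in these differences was not tested. Tnf was at 0.48, 0.44, 0.61 and 0.56 in contusion and at -2.27, -3.39, -2.40 and -3.76 in control, or 3.47 ± 0.32 higher (11.1-fold, adjusted p = 0.000189). The chemokine gene Cxcl2 was well above background on 3 of 4 control arrays and was at least 8.98-fold higher (adjusted p = 0.00434). The chemokine gene Ccl4 was 3.26 ± 0.54 higher (9.56-fold, adjusted p = 0.00195). Il10 and Csf3, named after their values were seen, were not called. With slide as a block 8 were called higher, and Il10 was called lower with a difference of -0.85 (adjusted p = 0.0473), while its groups overlap.

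Other genes with C-type lectin-like domains were also measured. Of 36 such genes 30 were tested, and 13 were called higher, 2 lower and 15 not, with a median difference of 0.39, where 25.8% of all mRNA genes were called higher and 25.4% lower. Whether their share differed from that of the 9 receptor genes was not tested. Within the slides the median was 0.42 and 0.28, and with slide as a block 10 were called higher. Clec7a (Dectin-1), the beta-glucan receptor of phagocytes, was at 3.87, 3.37, 3.80 and 3.70 in contusion and at 1.73, 1.42, 1.69 and -0.48 in control, or 2.60 ± 0.46 higher (6.05-fold, adjusted p = 0.00283). Cd209a, a mouse relative of the dendritic cell lectin DC-SIGN, was well above background on 2 of 4 control arrays and was at least 3.78-fold higher (adjusted p = 0.0193). Cd207 (langerin) was well above background on 1 of 4 control arrays and was at least 2.08-fold higher (adjusted p = 0.0448), although control replicate 3, at -3.72, was above every contusion array. The call for Cd209a was lost with slide as a block (adjusted p = 0.0755). The 2 genes called lower, named after their values were seen, were Clec2l at -0.88 ± 0.09 and Cd69, a leukocyte activation antigen, at -0.69 ± 0.13.

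Of the cells that could carry these receptors, monocytes, macrophages and microglia had most of their markers called higher. The mean level of the 9 receptor genes was 0.94, 0.79, 0.89 and 1.13 in contusion and -0.81, -1.62, -0.36 and -1.91 in control. Of all mRNA genes 25.8% were called higher and 25.4% lower, to be set beside the marker counts here. Of 12 monocyte and macrophage markers 12 were called higher, and their mean level was 3.97 to 4.25 in contusion and 0.82 to 2.34 in control. Adgre1, a defining macrophage marker, was 2.46 ± 0.35 higher (adjusted p = 0.000922). Of 10 microglia markers 7 were called higher and 0 lower, with means of 3.49 to 3.81 in contusion and 2.26 to 3.03 in control, and Tmem119 was 0.91 ± 0.17 higher (adjusted p = 0.00378). Both lists were lowest in control replicate 4, as were 6 of the 9 receptor genes. Their part in the receptor differences was not tested.

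Neutrophil markers gave another order of arrays. Of 12 such markers 3 were called higher and 1 lower, beside 25.8% and 25.4% of all mRNA genes. The mean level of the markers overlapped between the groups, at -0.00285, 0.40, 1.68 and 1.52 in contusion and 1.19, -1.07, 1.40 and -0.13 in control. Ly6g was 0.76 ± 0.13 higher (adjusted p = 0.0022), while 8 of the 12 were not called. Mmp9, the marker called lower and named after its value was seen, differed by -0.56 ± 0.14 (adjusted p = 0.0149). With slide as a block 1 of the 12 was called higher. Control replicates 1 and 3, the controls with the highest neutrophil marker levels, also had the highest levels of Clec4d, Clec4e and Clec4n among controls. This was not particular to neutrophil markers. Monocyte and macrophage markers were at 2.27 and 2.34 in control replicates 1 and 3, against 1.59 and 0.82 in replicates 2 and 4. Microglia markers were at 2.90 and 3.03, against 2.82 and 2.26. Without control replicates 1 and 3, Clec4d was 85.8-fold, Clec4e 31.8-fold and Clec4n 15.4-fold higher, each from the fitted difference. Then 8 of the 9 receptor genes were called higher. Leaving out the highest controls of these 3 genes raises their folds in any case, so these folds say nothing about neutrophils. The Clec4e value then rests on 2 control arrays, of which replicate 4 was not well above background. The part of neutrophils in these values was not tested.

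For this and the lists below, the shares of all mRNA genes were 25.8% called higher and 25.4% called lower. Of 8 dendritic cell markers 3 were called higher, 1 lower and 4 not, with a median difference of 0.04. Their means were -0.52 to -0.20 in contusion and -1.48 to -0.58 in control. Itgax was 2.26 ± 0.38 higher (adjusted p = 0.00216). Flt3, the marker called lower and named after its value was seen, differed by -0.83 ± 0.09 (adjusted p = 0.000303). Of 9 tested lymphocyte and natural killer markers 1 was called higher and 1 lower, and Cd3e differed by 0.01 ± 0.06 (adjusted p = 0.904). Markers of cord tissue showed that the labelled tissue was present: of 10, 2 were called higher and 5 lower, with means of 6.74 to 6.85 in contusion and 7.08 to 7.28 in control. The neuronal marker Rbfox3 fell by 0.97 on the log2 scale (SE 0.09, adjusted p = 0.000188), Gfap of astrocytes was 0.43 ± 0.14 higher (adjusted p = 0.0436) and Mbp of myelin differed by -0.18 ± 0.09 (adjusted p = 0.136). Of 6 red cell genes 5 were called higher, at 5.19 to 6.27 in contusion and 4.05 to 5.27 in control. Of 9 skeletal muscle genes 0 were called, but their mean was 4.13 and 2.47 in contusion replicates 1 and 2, against 0.54 and 0.35 in replicates 3 and 4 and -0.18 to 1.53 in control. Without contusion replicates 1 and 2, 5 of the 9 receptor genes were called higher. Clec4a1 (adjusted p = 0.0691), Clec4a2 (adjusted p = 0.0663) and Clec10a (adjusted p = 0.059) were then not called, with differences of 1.20, 1.08 and 1.79 that were no smaller. The part of these tissues in the receptor differences was not tested. The defining markers named here were well above background on all 8 arrays. With slide as a block, the numbers called higher were 12 for monocytes and macrophages, 7 for microglia, 1 for neutrophils, 2 for dendritic cells, 1 for cord tissue and 2 for red cells. The share of all mRNA genes called higher was then 25.2%. Mrc1 and Cd209a stand in a marker list and among the other lectin genes, and Siglech stands in both the microglia and the dendritic cell list.

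**Figure D5:**
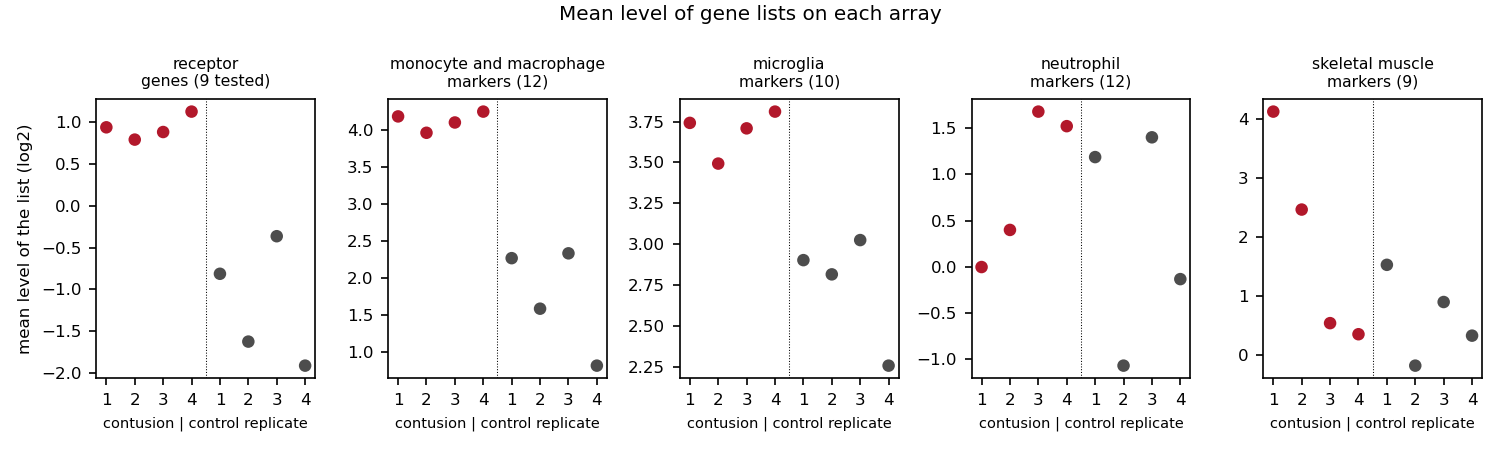
Mean level (log2, relative to the array's 75th percentile) of the 9 tested receptor genes and of 4 marker lists on each array, contusion replicates 1 to 4 left of the dotted line and control replicates 1 to 4 right of it. Receptor genes, monocyte and macrophage markers and microglia markers separate the groups, neutrophil markers do not, and muscle markers are highest in contusion replicates 1 and 2.

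The mRNA genes outside all lists whose levels ran most closely with the mean of the 9 receptor genes over the 8 arrays were Gdpd3, Cytip, Gpr132, Pilrb2 and Plscr1, with Pearson correlations of 0.998, 0.998, 0.998, 0.998 and 0.997. After each group's mean was subtracted, so that only the spread within groups counts, the closest were Nxpe5, Il10rb, Padi3, Cytip and Plscr1, with correlations of 0.994, 0.992, 0.991, 0.991 and 0.991 over the same 8 arrays. Cytip, a cytohesin-binding protein of leukocytes, and Plscr1, a phospholipid scramblase, stood in both sets. Cytip was 2.47 higher in contusion and Plscr1 0.99 higher. All values of an array share its labelling and scaling, and these genes were the closest of 18198, so the correlations describe these arrays only.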

How the data were processed

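Spinal cord RNA of 4 contusion and 4 control mice, grouped by the sample titles, was measured on 1-colour Agilent arrays with 150305 non-control probes. Per the file headers, each spot has a processed intensity, from which Feature Extraction had taken the background and a spatial trend. No normalization between arrays is recorded. The authors' deposited series table, an alternative only, is in log2 units: its ranks matched those of the scanner intensities (Spearman 1), its column medians were 5.3993 to 5.3999, and it was not centred per gene. Feature Extraction 10.7 and limma are named in the submitters' processing notes, while the headers read 12.0.3.1. Between 72.9% and 75.4% of an array's probes gave signal well above background, the 75th percentile of intensity was 203 to 252, 6 to 53 outlier spots were left out and 0 spots were saturated. The number of arrays limits the precision.

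Log2 intensities were scaled to each array's 75th percentile. A probe was kept if 4 or more of the 8 arrays had it well above background, and each gene was represented by its brightest kept probe on average. Groups were compared with limma 3.58.1 in R 4.3.3 (two-sided; lmFit and eBayes with only the group in the model) over 89134 features of all RNA classes, and receptor probes also in a fit over all kept probes. Pairs of receptors were tested by exact permutation (two-sided) of their ratio per array. A gene well above background on only some arrays of its lower group is given a lower bound, the dim arrays set to the lowest signal well above background. Such a bound allows for the dim signal only, and leaving out an array or another background correction can give a smaller fold. On simulated data with 89134 features, 74 of 100 changes of 1 on the log2 scale and 93 of 100 changes of 2 were recovered, with 9 false calls. The simulated noise was normal and independent, and the most variable features were left unchanged. Far fewer features were changed there than were called in the real data, so these figures do not carry over to it. The RefSeq table of GRCm38.p6 held 22483 (99.1%) of the 22694 mRNA accessions and also gave gene order and promoters, while array positions are on mm9.

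The receptor genes, the gene lists and the markers were chosen with earlier results of these data known. Named genes are all receptors, 8 preset signalling genes, 2 partners, the 3 largest calls of the other lists, the 5 closest genes by correlation, 1 defining marker per list where needed, and chromosomal neighbours. Samples are separate mice per the labels. The alternatives were another background correction, quantile normalization, other filters, the mean of probes, slide or replicate number as a block, the authors' table, and leaving out arrays singly or in 2 pairs. 1 signalling gene outside the list of 14 is not reported here.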

Additional observations from a re-analysis of the deposited data

Results flagged for a closer look

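In groups of 4 arrays, an array was singled out where its gap to the nearest other array exceeded Dixon's critical share of the whole range of its group. Of 38 groups tested 2 had such an array, and chance gives about 1 in 20. Clec4e was highest in contusion replicate 4 at a level of -0.28, with a gap of 0.836 of the range. Tyrobp was lowest in control replicate 4 at a level of 4.06, with a gap of 0.854 of the range.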

How the results depend on the processing

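The number of receptor genes called higher was 8 of 9, and it was 7 to 8 when single arrays were left out, 8 with quantile normalization, normexp or the authors' table, 7 of 8 when all 8 arrays had to be well above background, 9 with the mean of probes and 7 with slide as a block. Without contusion replicates 1 and 2 together it was 5, and 7 other lectin genes were called higher in place of 13. In that setting fewer arrays were fitted. Without the filter 9 of 10 were called, Clec12a among them, although its signal was not well above background on any array. The output list had 1 gene called lower, Il10, with slide as a block and 0 otherwise. Of the pairs 6 of 8 passed with the mean of probes and 0 with the brightest probe, quantile normalization, normexp or the authors' table (exact permutation tests). The adjusted p of a pair at the smallest possible p, 0.0286, falls as more pairs reach it. It was 0.0571 with the brightest probe and 0.0381 with the mean of probes, where Clec4a1 and Clec4a3 against Clec4a2 also reached it. The Clec4e pairs that passed had the same unadjusted p in both settings. Why the Clec4a2 pairs changed was not tested. Pairs were not run in other settings. The number of signalling genes called higher was 12 under every alternative run. When single arrays were left out, 9 to 14 other lectin genes were called higher and 2 to 3 lower, and 9 to 10 output genes higher. No receptor difference changed its sign under any alternative run. Same-numbered samples did not deviate together (correlations of -0.30, -0.01, 0.00 and -0.05, and 0 of 4 controls closest to their own number). Every same-numbered control and contusion sample lay on different slides, so this check cannot decide whether the numbers pair the samples. With a replicate block 7 receptors were called higher, against 21.6% of all mRNA genes, and Clec4a2 had an adjusted p of 0.0504 by limma. Clec4e was not tested under the strictest filter, and Clec4e and Clec12a are limited by signals near background.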
